A study of Mus musculus with 4 samples.

Results

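The regions described here are stretches of open chromatin that were strongly open in mouse plasmacytoid dendritic cells (pDC) and had no counterpart in the peak list of classical dendritic cells (cDC1). They were chosen by measured values: a region was taken from the pDC peak list if it lay on an autosome, shared no base with any of the 83701 cDC1 regions, and held a pDC footprint with a tag count of at least 120. Of 51097 autosomal pDC regions (51941 with the sex chromosomes), 10124 or 19.8% shared no base with a cDC1 region, and 2820 of these also reached 120 tags. The 2820 regions are 5.52% of the autosomal pDC regions and 27.9% of those found in pDC only. Their absence from the cDC1 list and their tag counts are what selected them, and neither is given as a finding.

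The study sorted dendritic cells from cultures of mouse bone marrow that were expanded and then differentiated with Flt3 ligand, and measured open chromatin by Omni-ATAC-seq, in which the transposase Tn5 cuts accessible DNA. The cDC1 were CD11c+, CD11b+ and XCR1+, and the pDC were CD11c+, CD11b- and B220+. B220 is also carried by B cells, and the identity of the pDC was not checked here at marker genes, since no gene annotation of the build of the lists was used. Each cell type has 2 replicates, which the authors merged into 1 peak list and 1 footprint list, so there is no spread between replicates, no test was made, and every interval below covers counting error only. Positions are in mm9.

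Plasmacytoid dendritic cells are the immune cells that secrete large amounts of type I interferon when they sense viral nucleic acids, and their identity depends on the transcription factor Tcf4. Classical dendritic cells of the cDC1 type take up dead cells and present their antigens to CD8+ T cells. Enhancers open in 1 cell type and closed in its relatives are among the sites where such lineage factors bind, and a bound factor can shield a short stretch, the footprint, from the transposase.

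The largest tag count among the footprints of a region, here called its tag count, ran from 120 to 602 with a median of 175 (quartiles 142 and 234). From 120 to 149 tags there were 907 regions, from 150 to 199 there were 847, from 200 to 299 there were 765, from 300 to 399 there were 231, and 70 regions had 400 or more. Most regions therefore had fewer than 200 tags. At the limit itself were 44 regions with 120 tags, such as chr1:36892459-36892836, chr1:132447919-132448256 and chr1:193092581-193092988, and 33 regions found in pDC only were left out at 119 tags, such as chr1:37801307-37801891, chr1:62564891-62565369 and chr1:172090522-172091032.

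The values that MACS2 gave the same regions followed the tag count in part. Their −log10 q, the significance of a peak after adjustment, had a median of 31.8 and ran from 1.31 to 179, and their fold enrichment over the MACS2 background had a median of 5.98 and ran from 1.57 to 15.2. Over the 2820 regions, which share 1 library, Spearman's rho was 0.75 between tag count and −log10 q and 0.42 between tag count and fold enrichment. The plot of tag count against −log10 q shows a thin tail of regions with a low −log10 q for their tag count. Fold enrichment was under 3 in 248 regions or 8.79%, against 1016 or 5.17% of the 19642 regions open in both cell types with at least 120 tags. The 248 regions had a median of 147 tags, below the 175 of all members, and a median width of 321 bp. The one with the most tags was chr11:3025548-3025902, with 406 tags but only 2.45-fold enrichment.

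**Figure D1:**
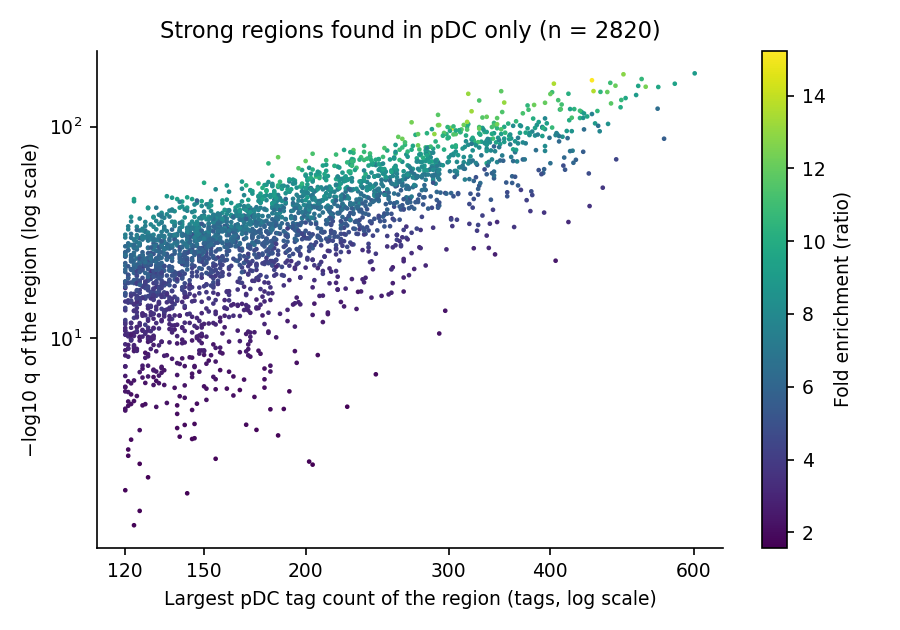
Each point is 1 of the 2820 strong regions found in pDC only, by its largest pDC tag count (x axis, tags, log scale) and its −log10 q (y axis, log scale), coloured by fold enrichment (ratio). The −log10 q rises with the tag count (rho 0.75), and a thin tail below the cloud holds regions such as the one with 406 tags and 2.45-fold enrichment.

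The strongest region of all, chr7:133517975-133518660, was 686 bp wide with a −log10 q of 179 and 9.04-fold enrichment. It held only 2 footprints, of 511 and 602 tags, on either side of its summit. The next were chr15:34225445-34226220 with 569 tags, chr16:91448048-91448785 with 552, chr5:37467849-37468705 with 543 and chr11:106485604-106486271 with 542. The 12 strongest regions each had a single summit, were between 668 and 913 bp wide and held between 2 and 12 footprints. The weakest enrichment among them was 5.61-fold, at the region of chromosome 16, and the largest 12.8-fold, at chr2:38311755-38312516 with 492 tags. Strong regions were also close to cDC1 regions: the one on chr4:46620690-46621419 with 513 tags lay 91 bp from the nearest cDC1 region, and the farthest of the 12 from one, chr2:38311755-38312516, lay 4863 bp away.

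The members were spread over all 19 autosomes. They made up between 4.30% (95% Wilson interval 3.61 to 5.11) of the pDC regions on chromosome 6 and 6.52% (5.73 to 7.41) on chromosome 5, beside 5.52% over all autosomes.

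In shape the members were mostly simple, with a single summit. Their width had a median of 498 bp (95% interval of the median 491 to 503) with quartiles of 420 and 605 bp, and it ran from 200 to 1349 bp. Of the 2820 regions, 157 or 5.57% (4.78 to 6.48) had more than 1 summit. Over all 51097 autosomal pDC regions the median width was lower, at 423 bp, and 12.5% had more than 1 summit. Width grew with the tag count, from a median of 435 bp at 120 to 149 tags to 717 bp at 400 tags or more.

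Regions with at least 120 tags that were open in both cell types had a median width of 652 bp, and 22.8% of them had several summits. They also had more tags, with a median of 224. With tag counts from 120 to 200 on both sides, the median widths were 458 bp and 501 bp, and the share with several summits was 4.30% (3.45 to 5.35) of 1768 members against 15.8% (15 to 16.6) of 8193 shared regions. Among regions 400 to 600 bp wide, the difference between members and shared regions in the share with several summits was -0.47 percentage points (-0.80 to 0.02). Without a limit on width, the same difference was -17.2 points at 120 tags or more and -11.5 points at 120 to 200 tags. The separate shares at 400 to 600 bp are not given. Whether width accounts for the difference in summits was not tested. The median width of the 7304 regions found in pDC only that did not reach 120 tags was 308 bp. An equal number of regions found in cDC1 only, the 2820 with the most cDC1 tags, were shaped much like the members. Their median width was 522 bp, and 6.49% had several summits. The sign of this width difference depended on how the cDC1-only regions were chosen.

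**Figure D2:**
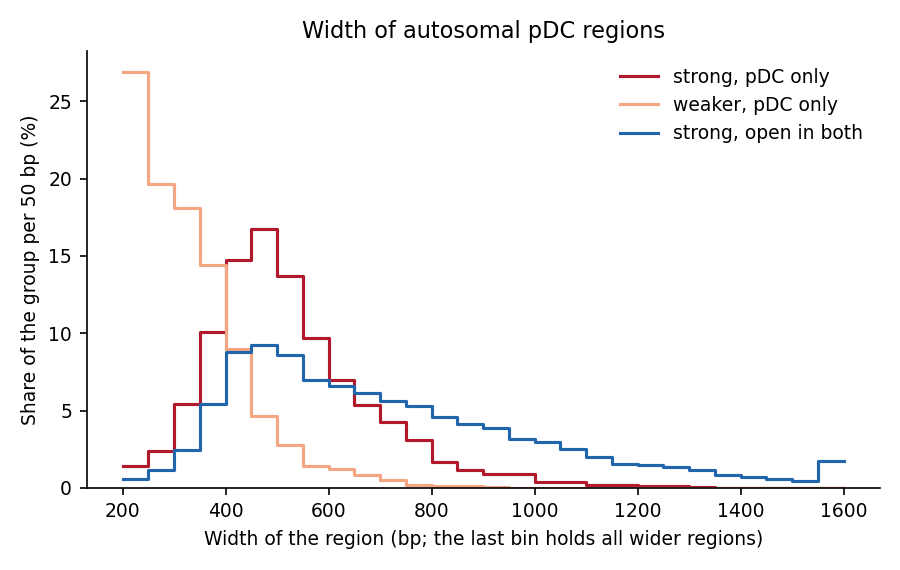
Share of each group (y axis, percent) by width of the region in 50-bp steps (x axis, bp) for strong regions found in pDC only (n = 2820), weaker regions found in pDC only (n = 7304) and strong regions open in both cell types (n = 19642). The strong pDC-only regions peak at 450 to 500 bp with 16.7% of the group and lack the long tail of wide regions of those open in both.

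The members held 16904 footprints in all, a mean of 5.99 and a median of 6 a region, or 11.4 per kb. Footprints covered 24.2% of the bases and had a median width of 18 bp. A single footprint was found in 106 members or 3.76%, and 41 members held 15 or more. The values over all autosomal pDC regions were close: a mean of 6.02 footprints, 11.8 per kb and 25.3% of the bases. A single footprint was found in 4.79% of all these regions, and the median footprint width was also 18 bp. Among members the mean number of footprints rose with the tag count, from 5.51 at 120 to 149 tags through 5.89, 6.36 and 6.65 to 7.30 at 400 tags or more, although the correlation over single regions was weak (rho 0.12). It rose more with width (rho 0.42).

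The region with the most footprints was chr12:60264789-60265747, with 30 footprints in 959 bp around 2 summits. Its tag count was only 127. The highest values formed 2 mounds: 7 footprints with 112 to 127 tags lay between 74.5 bp before and 11 bp after the main summit, counts fell to 26 tags 428.5 bp after it, and they rose again to 95 tags at 612.5 bp. The next regions by number of footprints were chr2:32206907-32207937 with 22 footprints and 357 tags, chr5:142866738-142867621 with 22 and 154 tags, and chr7:133590646-133591912 with 22 and 408 tags. Each of these was at least 884 bp wide.

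Tag counts within a member were highest at the summit and fell away on both sides. The footprint with the most tags lay within 50 bp of the main summit in 2254 members or 79.9% (78.4 to 81.4), at a median distance of 25.5 bp. Relative to the largest tag count of the region, footprints centred on the summit had a median of 98.1%, those 100 bp before and after it 75.6% and 78.0%, and those 200 bp before and after it 35.3% and 33.5%.

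The strongest footprint lay within 50 bp of the summit in 71.0% of the shared regions with at least 120 tags, 8.94 percentage points fewer than in the members. Among regions with 1 summit this difference was 5.96 points, and among regions 400 to 600 bp wide it was 2.95 points (0.84 to 4.93). At 120 to 200 tags, footprints 150 bp before the summit had a median of 56.2% of the largest tag count in members and 63.0% in shared regions, and 200 bp after it 31.8% and 43.4%. Close to the summit the groups had the same profile, with 97.9% and 97.0% at the summit itself. A central strongest footprint was not particular to the members. Among the 2820 strongest regions found in cDC1 only, it lay within 50 bp of the summit in 90.2%. Their footprints 200 bp before the summit had a median of 19.8% of the largest tag count. These regions had at least 475 tags in the cDC1 list.

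**Figure D3:**
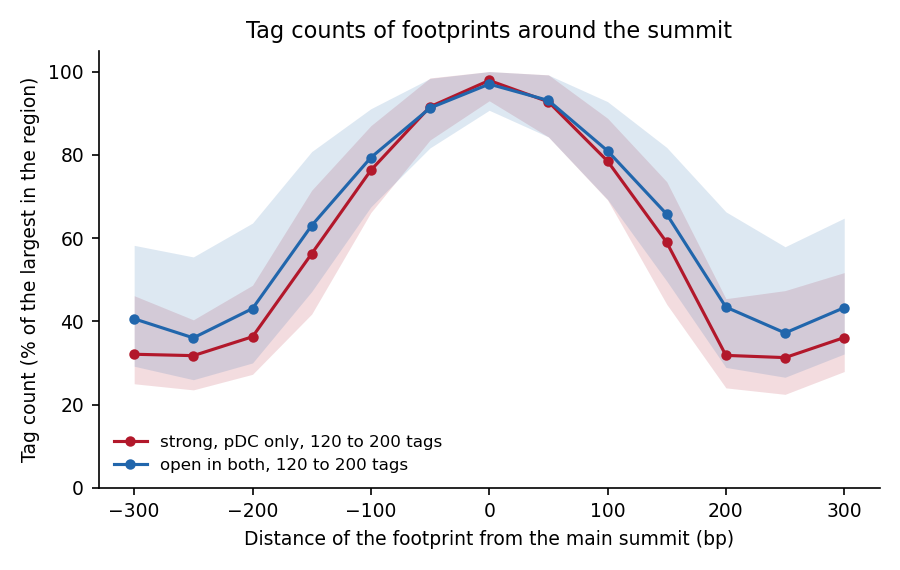
Median tag count of footprints, in percent of the largest tag count of their region (y axis), by distance from the main summit in 50-bp steps (x axis, bp), for pDC regions with 120 to 200 tags that were found in pDC only (n = 1768) or open in both cell types (n = 8193). Lines join the medians and bands span the quartiles. The lines coincide near the summit and part beyond 100 bp, where the pDC-only regions are lower.

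Most members lay within a few kb of chromatin that was open in cDC1. The distance to the nearest cDC1 region had a median of 3422.5 bp with quartiles of 1317 and 9441 bp. It was under 1 kb for 562 members or 19.9% (18.5 to 21.4), under 100 bp for 28, and at least 100 kb for 47 or 1.67%. Of the 562 within 1 kb, 378 or 67.3% had as nearest cDC1 region 1 that another pDC region overlapped, and 184 had a region found in cDC1 only. The most isolated member was chr5:55667548-55668074, with 179 tags, 1162663 bp from any cDC1 region. It was followed by chr7:78387354-78387842 with 265 tags at 825488 bp and chr2:141659804-141660628 with 190 tags at 757810 bp. The weaker regions found in pDC only lay farther from cDC1 regions, with a median of 5239.5 bp and 3.64% at 100 kb or more. With a −log10 q of at least 50 in place of the tag limit, the median distance of the 660 regions was 5371.5 bp.

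Regions found in pDC only were often neighbours of each other. The nearest pDC region of a member was itself found in pDC only in 885 cases or 31.4% (29.7 to 33.1), while this was so for 16.9% (16.3 to 17.4) of the shared regions with at least 120 tags and for 19.8% of all autosomal pDC regions. At 120 to 200 tags the shares were 30.9% and 17.0%. The weaker regions found in pDC only had the same share as the members, 31.3% (30.2 to 32.3). For 366 members or 13.0% (11.8 to 14.3) the nearest pDC region was another member, against 6.03% (5.70 to 6.37) for the strong shared regions. It was a member for 8.09% of the weaker pDC-only regions and 5.85% of all autosomal pDC regions. Within 25 kb a member had a mean of 0.975 other pDC-only regions, a weaker pDC-only region 0.736 and a strong shared region 0.598. The mean number of cDC1-only regions within 25 kb was 1.99 around members and 2.44 around strong shared regions.

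When members at most 10 kb apart were joined, 510 members or 18.1% (16.7 to 19.5) fell into 241 clusters, of which 218 held 2 members, 19 held 3, 3 held 4 and 1 held 5. The share was close to that of an equal number of the strongest regions found in cDC1 only, of which 521 or 18.5% (17.1 to 19.95) lay in 240 clusters. It rises with the distance allowed and with the number of regions joined: at 25 kb it was 30.2%, and among the 660 pDC-only regions with a −log10 q of at least 50 it was 3.94%. The largest cluster, chr15:37703390-37712790, held 5 members with 282, 160, 148, 151 and 235 tags within 9401 bp and no other pDC or cDC1 region. The cluster at chr2:158538239-158549508 had 4 members with 130, 393, 399 and 263 tags, and no other region either. At chr5:36710506-36721166 the 4 members had 261, 135, 226 and 392 tags, and the last of them was among the members with the most footprints (19). At chr8:126798612-126810816 there were 4 members with 410, 159, 128 and 129 tags and 1 region open in both cell types between them. In 3 of these clusters the strongest member had 392 tags or more, and in each of the 4 at least 1 had 160 tags or fewer.

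**Figure D4:**
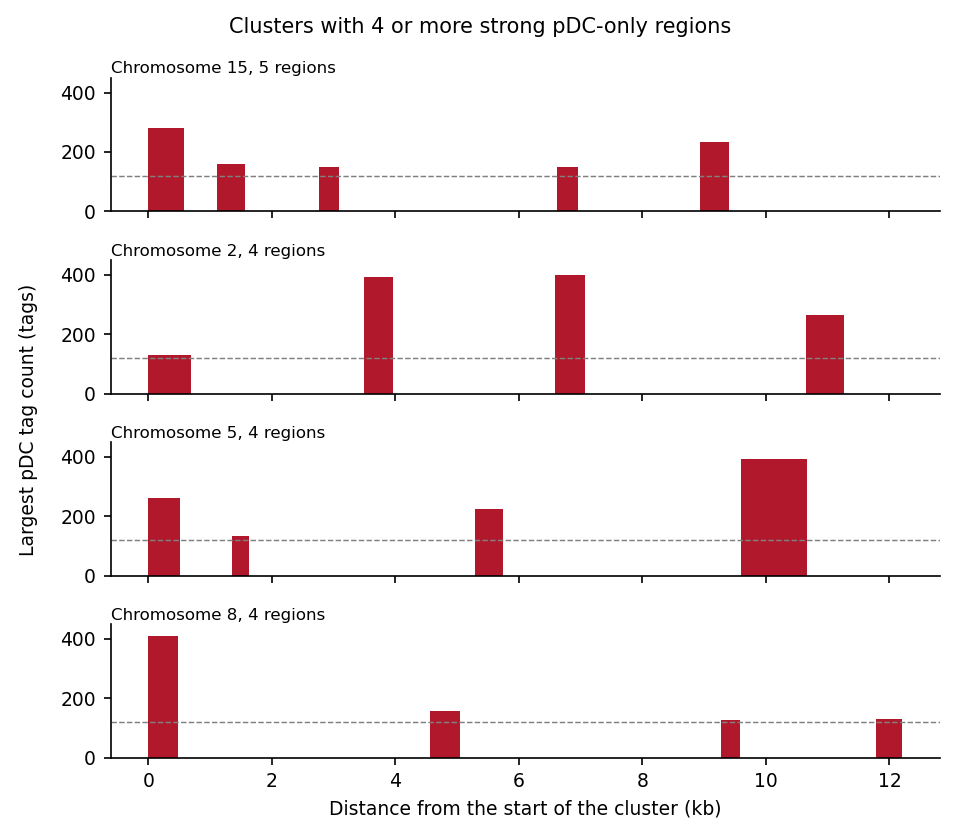
The 4 clusters with at least 4 strong regions found in pDC only. Each bar is 1 region, drawn to scale along the distance from the start of the cluster (x axis, kb), with its largest pDC tag count as height (y axis, tags), and the dashed line marks the limit of 120 tags. The cluster on chromosome 15 holds 5 regions with 148 to 282 tags, and the others hold 4 regions each, which reach 392 to 410 tags.

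Regions open in both cell types also leaned towards pDC where they lay near a member. Their tag counts were not used to choose the members. At the 40059 regions open in both cell types with footprints in each list, the largest tag count was 3.26 times higher in cDC1 than in pDC at the median. After division by this ratio, 13.7% of them were at least 2-fold higher in pDC and 11.4% were at least 2-fold higher in cDC1. Among the 719 shared regions within 2 kb of a member, 176 or 24.5% (21.5 to 27.8) were at least 2-fold higher in pDC and 48 or 6.68% (5.07 to 8.74) in cDC1. The share higher in pDC did not fall evenly with distance: it was 18.8% (16.4 to 21.4) at 2 to 5 kb and 22.3% (20.2 to 24.6) at 5 to 10 kb. At 10 to 25 kb the shares were 17.1% and 9.26%, and beyond 100 kb they were 11.9% and 12.3%. The median log2 of the scaled ratio of cDC1 to pDC tags was -0.19 (-0.31 to -0.12) within 2 kb, -0.09 at 2 to 5 kb, -0.14 at 5 to 10 kb and 0.03 (0.02 to 0.04) beyond 100 kb. Over the whole range up to 10 kb, 657 of 3027 shared regions or 21.7% (20.3 to 23.2) were at least 2-fold higher in pDC, with a median log2 of -0.13. Around the 660 pDC-only regions with a −log10 q of at least 50, these values were 25.2% and -0.25. When only cDC1 regions with a −log10 q of at least 10 were counted, they were 15.9% and -0.12. The share over all shared regions was not computed under that setting. Around the strongest regions found in cDC1 only the lean was the reverse, with 4.85% (3.65 to 6.43) at least 2-fold higher in pDC and 18.6% (16.2 to 21.2) in cDC1 within 2 kb.

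**Figure D5:**
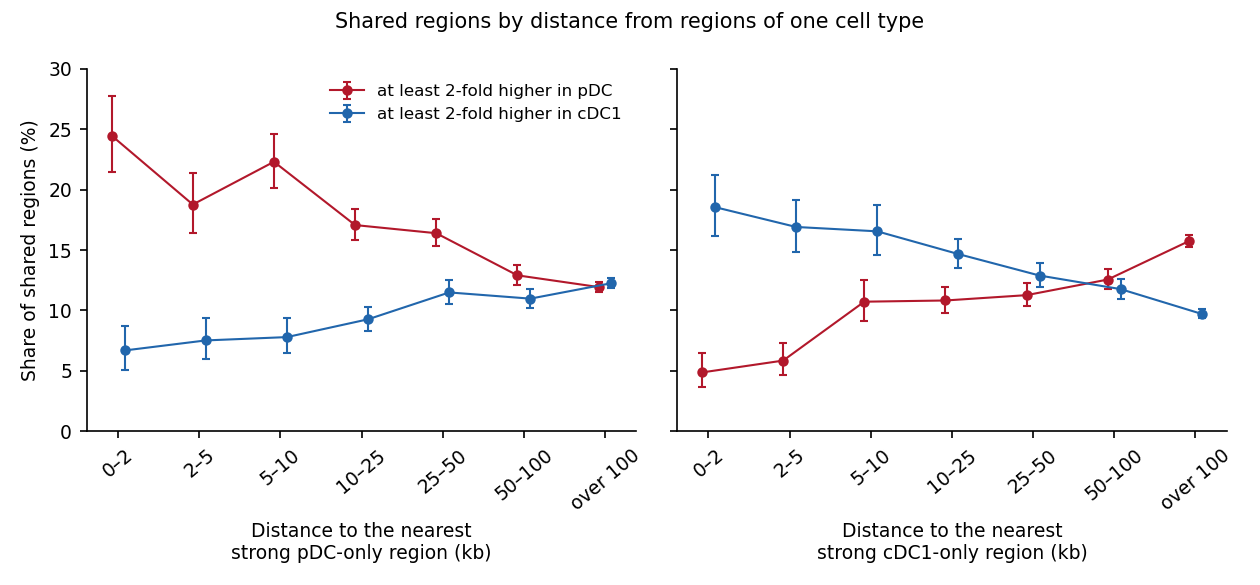
Share of regions open in both cell types (y axis, percent) that were at least 2-fold higher in pDC or in cDC1 after scaling, by distance in kb to the nearest strong region found in pDC only (left) or in cDC1 only (right). Points are shares and bars are 95% Wilson intervals. Near pDC-only regions 24.5% were higher in pDC and 6.68% in cDC1, near cDC1-only regions 4.85% and 18.6%, and each pair of lines meets or crosses at larger distances.

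The lean was widest around the members with the most tags. For the 301 members with 300 tags or more, the nearest shared region was at least 2-fold higher in pDC in 106 cases or 35.2% (30.04 to 40.8) and at least 2-fold higher in cDC1 in 14 or 4.65%. For members with 120 to 149, 150 to 199 and 200 to 299 tags, the share higher in pDC was 24.1% (21.5 to 27.0), 26.4% (23.6 to 29.5) and 25.5% (22.5 to 28.7). The weaker regions found in pDC only had shares between 21.1% and 24.4%, which overlap those of the members below 300 tags. The median distance to the nearest shared region also differed. It was 5009 bp at 300 tags or more, between 5972 and 6160 bp for the other members, and between 6865.5 and 12523.5 bp for the weaker regions. Whether distance accounts for the difference in shares was not tested.

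The 12 strongest members are part of the 301 with 300 tags or more, so they are examples and no separate support. Their nearest shared region was higher in pDC after scaling in 11 cases, at least 2-fold in 7, and in none at least 2-fold higher in cDC1. Over all shared regions, 13.7% were at least 2-fold higher in pDC and 11.4% in cDC1. The 11 include log2 ratios of -0.03 on chromosome 7 and -0.08 on chromosome 9, which are close to the median ratio. These nearest shared regions lay up to 18426 bp away. The member on chr15:34225445-34226220 lay 2482 bp from a shared region with 308 tags in pDC and 72 in cDC1, a scaled log2 ratio of -3.80. The member on chr19:32482743-32483416, with 518 tags, lay 801 bp from 1 with 289 tags in pDC and 93 in cDC1 (-3.34). At the strongest member, on chromosome 7, the shared region 2046 bp away had 324 tags in pDC and 1036 in cDC1 (-0.03), which is the ratio of the median shared region. The only neighbour among the 12 on the cDC1 side of the median ratio, at chr4:46620690-46621419, had 287 and 976 tags (0.06), also close to that ratio.

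The tag counts of neighbouring regions come from the same 2 merged libraries, so they are not independent of each other. A region missing from a peak list is not shown to be closed, since the lists hold only what passed the peak caller.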

How the data were processed

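As the paper's methods and the submitters' processing notes describe, the authors cleaned paired-end reads with Trim Galore, mapped them with Bowtie2 to mm9, dropped duplicate and poorly aligned reads with SAMtools, merged the replicates of each cell type, and called peaks with MACS2 and footprints with HINT-ATAC. Tool versions: not given in the sources used here. In the deposited peak lists the authors give each summit a fold enrichment (a ratio), a −log10 q-value, a display score and an offset. The deposited footprint value was taken to be an unscaled tag count, over a window that no source states. The depth of each sample is not in these lists.

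Lines for 1 interval were joined into 1 region, whose main summit is that of the largest −log10 q. Overlap meant at least 1 bp, and bedtools 2.31.1 gave the same 10124 regions. Tag counts were compared between cell types only after division by their median ratio. Shares carry 95% Wilson intervals and medians 95% order-statistic intervals. Python 3.11.15, numpy 2.4.6, pandas 2.3.3, scipy 1.17.1 and matplotlib 3.10.9 were used. On simulated lists of 20000 regions all 15898 shared regions were found, and 200 of 200 regions with a 4-fold change and 0 of 15698 unchanged ones passed 2-fold. The simulated tag counts were large and carried counting error only. The simulation therefore checks the code, and the rate of false 2-fold calls in these data was not tested.

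The regions and lists were chosen with earlier results of these data known. Regions named are the 12 with the most tags, the 8 with the most footprints and 3 on each side of the limit; those in clusters, farthest from cDC1 or with little enrichment were chosen after their values were seen. On 8 of 21 chromosomes the lists run past the GRCm38 sequence, so they were taken as mm9, and genes, promoters, motifs, base composition and sequences, which need an mm9 genome and annotation, were not analysed here. The alternatives tried were other tag, q and distance limits, subsets of matched tags, width or summits, other cluster distances and sets of autosomes.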

Additional observations from a re-analysis of the deposited data

How the results depend on the processing

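No paired analysis was possible because the replicates were merged into 1 list per cell type before deposit, so that no alternative without a replicate exists. The results for promoters, introns and exons, motifs, base composition and gene lists were not run. Of 103 alternatives, 60 stayed within the 95% interval of the value reported (counts within 1.5 times), 42 moved and 1 reversed. The alternatives on matched summits, matched widths, shared regions with at least 120 pDC tags, pairs of regions, 2 to 10 kb and members with 300 tags were chosen after seeing the data. The cause of the moves was not tested, except where the setting itself changes which or how many regions enter.

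The reversed value was the median width of members minus that of strong regions found in cDC1 only, -24 bp with an equal number of regions by tag count and 20 bp when the cDC1 regions were the 11043 at or over the −log10 q of the median member. With a limit of 100 tags, the median width was 475 bp, the mean number of footprints 5.85, the share in clusters 20.7%, and the differences from shared regions -131 bp in width and -15.6 points in several summits. With a limit of 150 tags these were 527 bp, 6.22, 15.4%, -183 bp and -18.8 points. With a −log10 q of at least 50 in place of the tag limit, 660 regions remained, and their median width was 600.5 bp, the mean number of footprints 6.30, the share in clusters 3.94%, the median distance to cDC1 5371.5 bp, and the differences from shared regions 17.6 points in a pDC-only nearest neighbour, -202.5 bp in width, -19.9 points in several summits and 11.7 points in a central strongest footprint; shared regions within 10 kb had a median log2 ratio of -0.25, with 25.2% at least 2-fold higher in pDC. For members at least 1 kb from cDC1 regions the values were 507 bp, 6.12 footprints, 16.1% in clusters, 4946.5 bp, 19.6 points in nearest neighbours and -145 bp. Against cDC1 regions with a −log10 q of at least 10 only, 3565 regions qualified in place of 2820. Their share in clusters was 21.7%, their median distance to cDC1 4557 bp and the neighbour difference 17.2 points. Of the shared regions within 10 kb, 15.9% were at least 2-fold higher in pDC, in place of 21.7%. The odd-numbered autosomes held 1591 members and the even-numbered 1229. Clusters at 5 kb and 25 kb held 12.5% and 30.2% of members. At 120 to 200 tags on both sides the differences were -43 bp in width and -11.5 points in several summits. With 1 summit they were -77 bp and 5.96 points in a central strongest footprint, and at 400 to 600 bp -0.47 points in several summits and 2.95 points in a central strongest footprint. Among shared regions with at least 120 pDC tags, 23.3% within 10 kb of a member were at least 2-fold higher in pDC. This setting selects on the pDC tag count that enters the ratio. The share over all shared regions with at least 120 pDC tags is not given, so the 23.3% has no matching background.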
